A study of Zea mays with 18 samples.

Results

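The comparison described here sets a maize line with reduced phytoglobin against a line with excess phytoglobin, both after low oxygen. A_12h is the line down-regulating ZmPgb1.1 (labelled Pgb1.1A) after 12 h of hypoxia at 4% oxygen, with 3 libraries. S_12h is the line overexpressing ZmPgb1.1 (labelled Pgb1.1S) after the same 12 h at 4% oxygen, also with 3 libraries. These 6 libraries were chosen by genotype and time in their titles, out of 18 in the series. The other 12 are the same lines at 0 h in air (A_0h and S_0h) and wild type at both times (WT_12h and WT_0h), with 3 libraries each. Every library in air was from 0 h and every library under hypoxia from 12 h. Oxygen and elapsed time therefore cannot be told apart where hypoxia is set against air. All plants were seedlings 5 days old with roots held in liquid medium, and the RNA came from the quiescent centre, taken after the root cap was cut away. Both compared groups carry a ZmPgb1.1 construct and both had hypoxia, so neither is an untreated control. How many independent events stand behind each line, and which promoter drives each construct, is not given in the sources used here. Nothing in the labels says that libraries of a group came from different plants, so the p-values reflect how far these libraries spread, and that spread may be technical.

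Phytoglobins are the plant members of the hemoglobin family. They bind oxygen very tightly and oxidise nitric oxide to nitrate, and in plants short of oxygen they are among the proteins that set how much nitric oxide a cell holds. The quiescent centre is the group of rarely dividing cells that keeps the root stem cells around it in place. It sits in a part of the root where oxygen is low even in air. Setting the lines against each other asks what differs in these cells when phytoglobin is changed in opposite directions and oxygen falls.

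The deposited table gives whole-number read counts for 28724 gene IDs. None of them matched an entry of the RefSeq gene table, which belongs to a later maize assembly (0 of 28724), so genes are given by ID alone, without names, positions or functions. ZmPgb1.1 could not be looked up either, so the labels of both lines were not checked against the gene they alter, and the quiescent centre was not checked against its markers. The A_12h libraries held 71101682, 84121755 and 35441975 counts, and the S_12h libraries held 65097155, 54133682 and 48130771. The whole series ran between 35441975 and 89759585. A level of 3 counts, used below as the floor, corresponded to 0.0352 to 0.0826 CPM in A_12h and 0.0454 to 0.0626 CPM in S_12h, CPM being a gene's count per 1000000 counted in that library. Bulk RNA was measured, so fewer cells of a type and less RNA per cell cannot be told apart.

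Within both compared groups, replicates 1 and 2 resembled each other and replicate 3 resembled another group. The Spearman correlation of log2 CPM was 0.9981 between A_12h replicates 1 and 2, and A_12h replicate 3 reached only 0.9718 with either. The same A_12h replicate 3 correlated at 0.9973 and 0.9974 with S_12h replicates 1 and 2, which stood at 0.9977 with each other. S_12h replicate 3 was at 0.9351 to 0.9356 with the other S_12h libraries and at 0.9971 to 0.9972 with A_0h replicates 1 and 2. In turn, A_0h replicate 3 was at 0.9979 to 0.998 with A_12h replicates 1 and 2. By resemblance, then, the library labelled A_12h replicate 3 stood with the overexpressing line, and the library labelled S_12h replicate 3 with the down-regulated line in air. No pair looked like 1 library deposited again: among the 15 pairs of these 6 libraries the smallest chi-square per gene was 3.89, between A_12h replicate 3 and S_12h replicate 2, where sampling alone gives about 1. Whether labels were exchanged among A_12h, S_12h and A_0h replicate 3 was not tested, and it bears on every value with all libraries and on the air contrast. Each result below is therefore given with all 3 libraries a side and without replicate 3 of both groups.

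**Figure D1:**
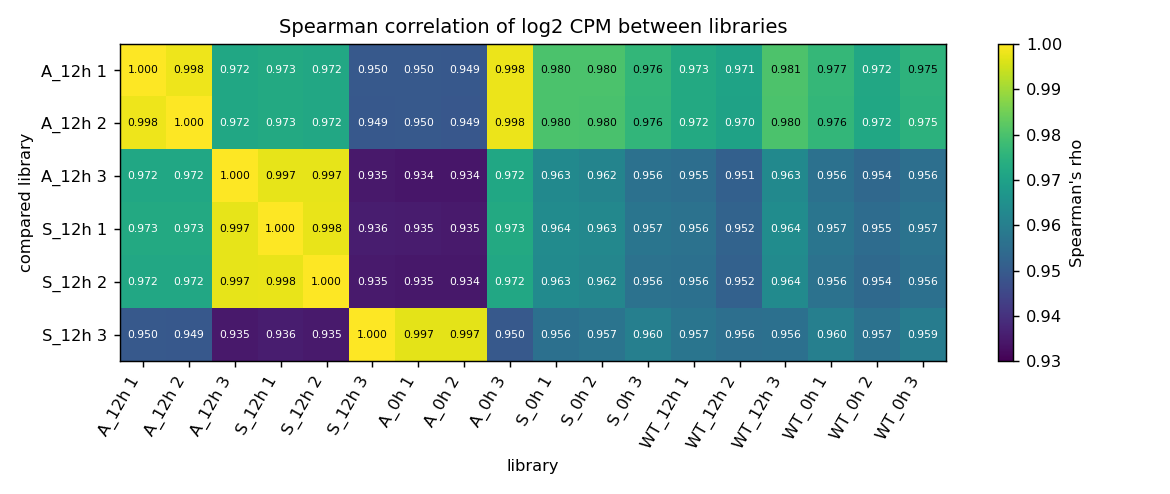
Spearman correlation of log2 CPM between each of the 6 compared libraries (rows, A_12h above S_12h as labelled, with A_12h 3 and S_12h 3 as the third of each) and all 18 libraries (columns); colour and printed value give rho. A_12h 3 is closest to S_12h 1 and S_12h 2 (0.9973 to 0.9974), and S_12h 3 to A_0h 1 and A_0h 2 (0.9971 to 0.9972).

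With all 3 libraries a side, no gene differed between A_12h and S_12h at an adjusted p under 0.05 (0 of 20945 genes tested, 0% called; lowest adjusted p = 0.646, edgeR quasi-likelihood test with Benjamini-Hochberg adjustment). At an unadjusted p under 0.05 there were 1581 genes, 7.55% of those tested. limma-voom also called 0 genes, whereas DESeq2 called 93, of which 10 were higher and 83 lower in A_12h. The labelled groups did not overlap in 2079 genes, 9.93% of those tested, with 1164 higher (5.56%) and 915 lower (4.37%) in A_12h. Leaving S_12h replicate 3 out of this count, and keeping all 3 A_12h libraries, gave 6012 genes without overlap (28.7%), and leaving out replicate 3 of both groups gave 15806 of 21191 (74.6%). Fewer libraries overlap less often by construction, so these shares are not compared.

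A pair of IDs shows what could separate the labelled groups in full. Both were chosen after their values were seen, as the lowest unadjusted p in each direction among genes without overlap. Zm00001d047509.RefGen_V4 was at 4.26, 2.69 and 1.82 CPM in A_12h and at 0.0454, 0.0182 and 0.0209 CPM in S_12h. Every A_12h library was above every S_12h library, and the S_12h values rest on 3, 1 and 1 counts. WT_12h replicate 1 was as low, at 0.0226 CPM, while all other libraries of the remaining groups held between 1.27 and 16.9 CPM. The log2 fold change of this ID came to 6.56 with an SE of 1.43 (adjusted p = 0.646). Zm00001d015086.RefGen_V4 was at 21.0, 21.0 and 21.4 CPM in A_12h and at 26.7, 27.2 and 30.4 CPM in S_12h. All A_12h libraries were lower, by a log2 fold change of -0.41 (SE 0.08, adjusted p = 0.646). Neither passed the threshold with all libraries. Other fits of the same libraries are no separate support, because the values in these libraries chose the IDs. DESeq2 called both. Without replicate 3 of both groups edgeR called both too, Zm00001d047509.RefGen_V4 at a log2 fold change of 6.65 (adjusted p = 0.0321) and Zm00001d015086.RefGen_V4 at -0.36 (adjusted p = 0.0137).

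Without replicate 3 of both groups, with the other 16 libraries in the fit, 3452 of 21191 genes differed between A_12h and S_12h (16.3% called). Of these, 1768 were higher in A_12h, 8.34% of those tested, and 1684 were lower, 7.95%. At an unadjusted p under 0.05 there were 6470 genes (30.5%). At least 2-fold changes were 370 among the higher and 518 among the lower genes, and at least 8-fold changes were 92 and 91. In contrast, 1030 of the higher and 825 of the lower genes changed by less than 1.5-fold. The count rested on 2 libraries a side: it was 1172 and 1160 without A_12h replicate 1 or 2, and 1311 and 1136 without S_12h replicate 1 or 2.

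Of the IDs with the largest differences among those at 10 CPM or more in the higher group, 3 had 0 counts in replicates 1 and 2 of the lower group. Zm00001d051938.RefGen_V4 was at 42.9 and 45.2 CPM in A_12h replicates 1 and 2 and had 0 counts in S_12h replicates 1 and 2. It was at least 883-fold higher in A_12h, taking the floor of 3 counts in each S_12h library, with a fitted log2 fold change of 14.62 (SE 4.13, adjusted p = 0.0347). For an ID with 0 counts in a group the fitted figure moves with the prior count and is no bound. In the libraries left out the order was turned, with 0 counts in A_12h replicate 3 and 0.376 CPM in S_12h replicate 3. With all 3 libraries a side the log2 fold change of this ID was 7.98 (SE 2.57, adjusted p = 0.646). The ID was also high in A_0h replicate 3, at 42.3 CPM, against 0.264 and 0.348 CPM in A_0h replicates 1 and 2 and at most 0.686 CPM in any S_0h or WT library. This call was lost with no filter on low counts (adjusted p = 0.0539), by limma-voom (adjusted p = 0.175) and without any 1 of the 4 libraries (adjusted p from 0.0948 to 0.172).

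Zm00001d031518.RefGen_V4 was at 12.2 and 13.0 CPM in A_12h replicates 1 and 2 and at 0 counts in S_12h replicates 1 and 2, at least 253-fold higher in A_12h (log2 fold change 12.82, SE 1.62, adjusted p = 0.000588). Here S_12h replicates 1 and 2 were the pair that stood apart, since every A_0h, S_0h and WT library held between 3.96 and 23.3 CPM. A_12h replicate 3 had 0 counts and S_12h replicate 3 held 4.45 CPM. With all 3 libraries a side the log2 fold change was 2.53 (SE 1.52, adjusted p = 0.667). limma-voom did not call this ID (adjusted p = 0.209).

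Zm00001d026041.RefGen_V4 ran the other way, with 0 counts in A_12h replicates 1 and 2 and 11.0 and 13.5 CPM in S_12h replicates 1 and 2. It was at least 319-fold lower in A_12h, with a log2 fold change of -12.78 (SE 1.81, adjusted p = 0.00363). A_12h replicate 3 held 11.2 CPM, like the S_12h pair, and S_12h replicate 3 held 0.397 CPM. With all 3 libraries a side the log2 fold change of this ID was -1.17 (SE 1.95, adjusted p = 0.887). The 6 WT and 3 S_0h libraries together held 1 count of it.

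Zm00001d009084.RefGen_V4 was at 0.333 and 0.329 CPM in A_12h replicates 1 and 2 and at 118 and 122 CPM in S_12h replicates 1 and 2, so that the S_12h mean was 363 times the A_12h mean. The log2 fold change was -8.50, with an SE of 1.02 (adjusted p = 0.000317). A_12h replicate 3 held 124 CPM and S_12h replicate 3 held 1.09 CPM. No other library exceeded 1.44 CPM, so the level was high in the S_12h pair and in A_12h replicate 3 and low in the remaining 15 libraries. With all 3 libraries a side its mean was 41.7 ± 71.7 CPM in A_12h and 80.4 ± 68.7 CPM in S_12h (SD, n = 3 each), and the log2 fold change was -0.95 (SE 1.6, adjusted p = 0.887). Across the 12 alternative settings without replicate 3, both lower IDs passed the threshold.

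**Figure D2:**
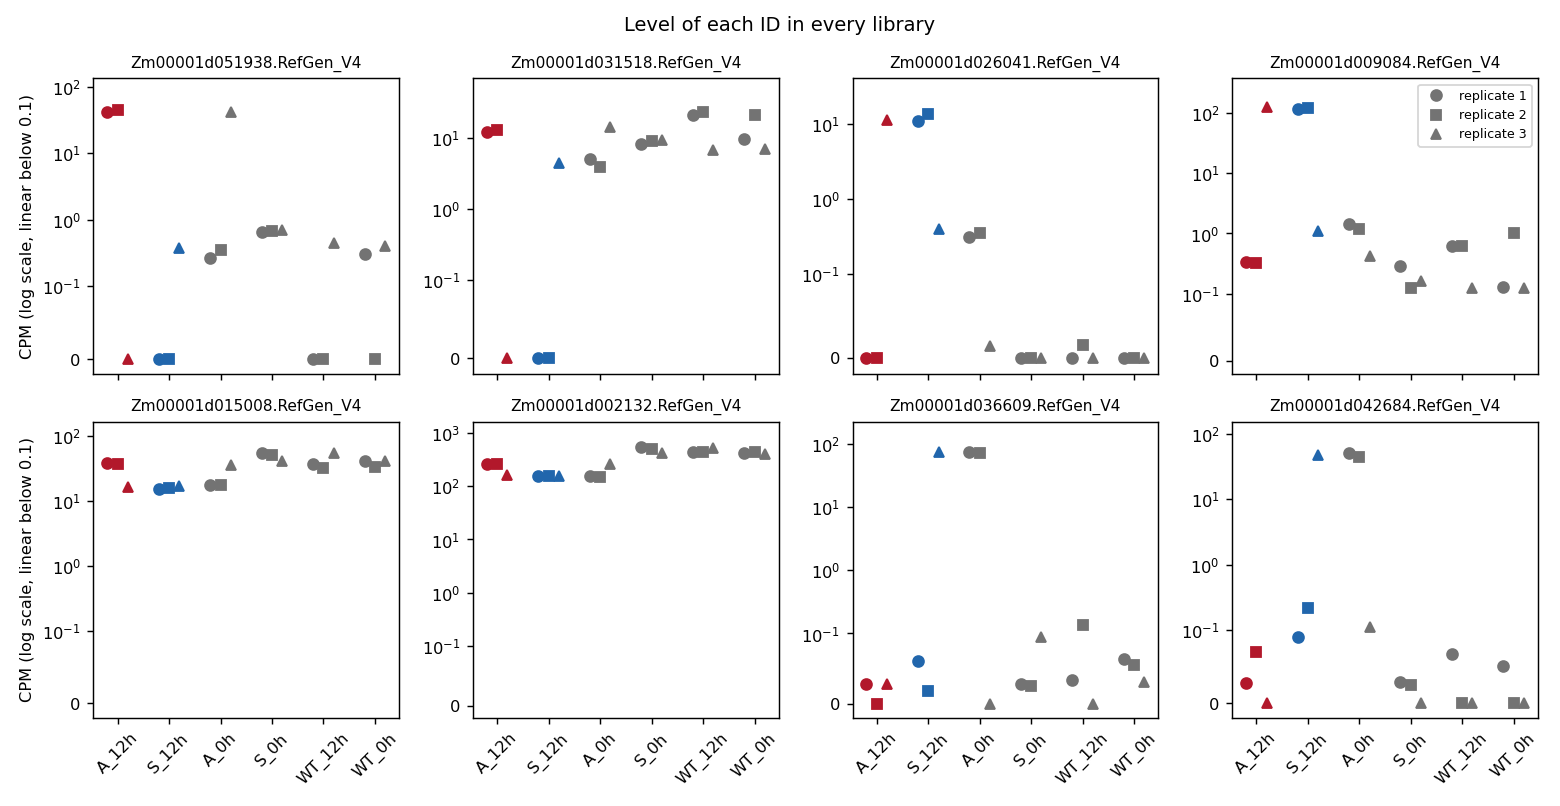
CPM of 8 IDs in every library (log axis, linear below 0.1), by labelled group with A_12h in red, S_12h in blue and the other groups in grey; circle, square and triangle are replicates 1, 2 and 3. In the top row, A_12h and S_12h replicates 1 and 2 are far apart and the triangles of both groups lie elsewhere; the bottom row shows the IDs whose difference between lines changed between hypoxia and air, of which the 2 on the right are high in A_0h replicates 1 and 2 and in S_12h replicate 3.

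Leaving out the pair of libraries changed the size of differences far more than their sign. Among the 3452 genes called without them, 3288 (95.2%) had the same sign with all 3 libraries a side, and the 2 fits share the other libraries, so this is no separate support. The median size of the log2 fold change was 0.55 without the pair and 0.18, in the same direction, with all libraries. For the 888 genes that differed at least 2-fold the medians were 1.77 and 0.64. In 542 of these 888 genes A_12h replicate 3 lay within the range of S_12h replicates 1 and 2 or beyond it on the side away from A_12h.

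**Figure D3:**
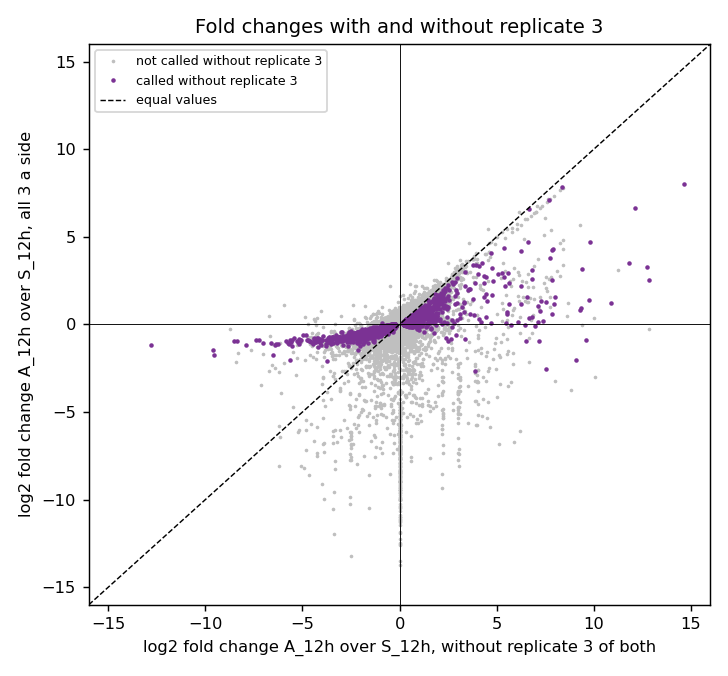
Log2 fold change of A_12h over S_12h for each gene without replicate 3 of both groups (horizontal) and with all 3 libraries a side (vertical); purple points passed the threshold without replicate 3 and the dashed line marks equal values. Most purple points lie between the horizontal axis and the dashed line, with a median size of 0.55 on the horizontal and 0.18 on the vertical axis.

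The number of genes called without replicate 3 also turned on which other libraries set the spread. The fit of 16 libraries takes its spread from all 6 groups, 4 of which still hold 1 library that resembles another group. Fitted on A_12h and S_12h replicates 1 and 2 alone, 11504 of 19736 genes differed (58.3% called), 5802 of them higher (29.4%) and 5702 lower (28.9%) in A_12h, and 61.7% had an unadjusted p under 0.05. A fit of 12 libraries, without the 1 library of each group that was nearest to another, called 10009 of 21030 genes (47.6%), with 5446 higher (25.9%) and 4563 lower (21.7%) in A_12h, and 53.1% had an unadjusted p under 0.05. Of the 3452 genes called with 16 libraries, 3448 were called in the same direction with 4 libraries, where they made up 30% of the calls. Most of the added calls were small: of the 4-library calls, 3929 higher and 3669 lower genes changed by less than 1.5-fold, and 1008 higher and 1171 lower genes changed at least 2-fold. The 4-library counts rest on 2 libraries a side and 2 residual degrees of freedom.

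Calls were more frequent among abundant genes, and the called differences were larger among scarce ones. In the 16-library fit, 3.27% of 3851 genes with a mean below 1 CPM over all libraries were called, against 26.3% of 3665 genes at 64 CPM and over. Every called gene of the scarce class, 77 higher and 49 lower in A_12h, changed at least 2-fold. In the abundant class, 12 of 520 higher and 44 of 445 lower genes did so. The 4-library fit showed the same order, with 33.5% called below 1 CPM and 79.2% at 64 CPM and over. The counts behind a gene move with its level, and their part in this order was not tested. With few counts a difference must be large to pass the threshold, so the order is not read as a trait of the lines.

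**Figure D4:**
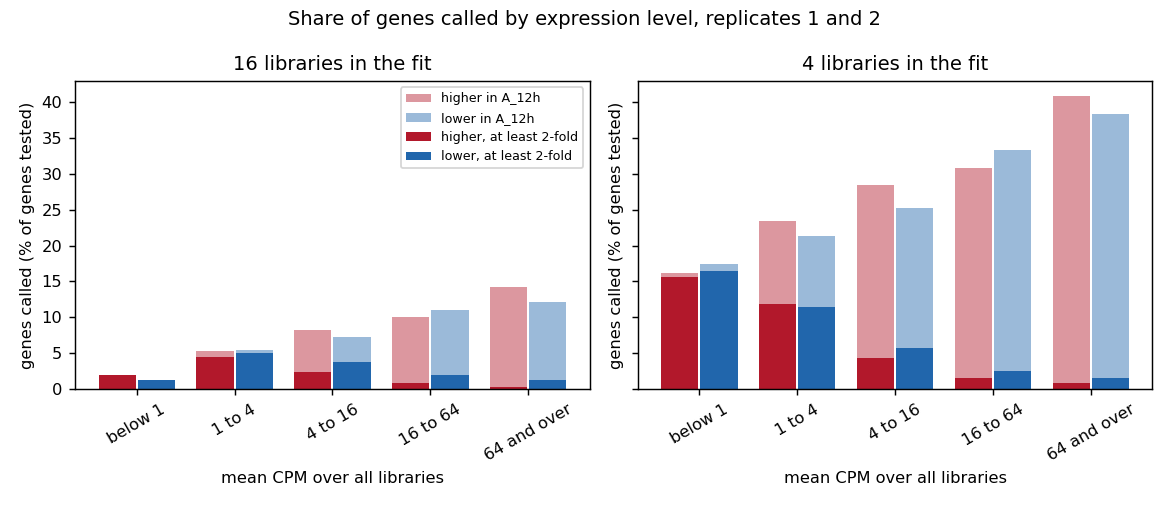
Share of tested genes called higher (red) or lower (blue) in A_12h than in S_12h, replicates 1 and 2, in 5 classes of mean CPM over all libraries; dark bars are changes of at least 2-fold, and the panels are the fits of 16 and 4 libraries. Shares rise with level to 26.3% and 79.2% called in the top class, where the dark part is smallest relative to the whole bar.

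The genes at least 2-fold lower in A_12h held far more of the counts in S_12h replicates 1 and 2 than those at least 2-fold higher, while in A_12h replicates 1 and 2 both sets held about as much. The 518 genes called at least 2-fold lower with 16 libraries summed to 8384 and 8409 CPM in A_12h replicates 1 and 2 and to 36090 and 36140 CPM in S_12h replicates 1 and 2. The same 518 genes summed to 36050 CPM in A_12h replicate 3 and to 8646 CPM in S_12h replicate 3, and to between 7347 and 8630 CPM in the 12 libraries of the other groups. The 370 genes at least 2-fold higher summed to 8515 and 8636 CPM in A_12h replicates 1 and 2 and to 2914 and 2883 CPM in S_12h replicates 1 and 2. A_12h replicate 3 was at 2962 CPM for these and S_12h replicate 3 at 5952 CPM. A_0h replicate 3 reached 8357 CPM, and the other 11 libraries lay between 4912 and 6042 CPM. These genes were chosen for their difference in the 4 libraries, and the 12 libraries of the other groups helped set the spread in that fit. Only the sums in replicate 3 of A_12h and of S_12h, which had no part in the fit, are new values.

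Libraries that had no part in the fold change were set beside both lines. Each library was placed, gene by gene, between the S_12h pair (position 0) and the A_12h pair (position 1) on the log2 CPM scale. The fit of 4 libraries was used for this, because in the 16-library fit the other groups set the spread and so bear on which genes are called. The filter of that fit also saw only these 4 libraries, so a gene could pass through its level in 1 pair alone. A library with little of such a gene then falls nearer to the other pair, and how far this moved the shares below was not tested. For the 1171 genes at least 2-fold lower in A_12h, A_12h replicate 3 had a median position of 0.01 and S_12h replicate 3 one of 0.97. The WT libraries had medians of 1.09 to 1.26, the S_0h libraries 1.09 to 1.12 and the A_0h libraries 0.97 to 1.0, so all of them lay at the level of A_12h. In 639 of these genes (54.6%), all 11 other libraries were nearer to A_12h, and in 20 genes (1.71%) all were nearer to S_12h. The 11 are the 6 WT, the 3 S_0h and A_0h replicates 1 and 2.

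For the 1008 genes at least 2-fold higher in A_12h, the other libraries lay on no common side, and this depended on the 2-fold limit. A_12h replicate 3 was again at the S_12h level, with a median position of 0.02, and A_0h replicate 3 at the A_12h level, with 0.98. The other libraries had medians between 0.24 in WT_12h replicate 2 and 0.52 in WT_0h replicate 1 and S_0h replicate 1, with lower quartiles of -0.25 to -0.02 and upper quartiles of 0.83 to 1.0. In 229 genes (22.7%) all 11 other libraries were nearer to S_12h, so that A_12h replicates 1 and 2 were high against these 11. A_0h replicate 3, not among the 11, was nearer to A_12h in 95.8% of the 1008 genes. In 120 genes (11.9%) all 11 were nearer to A_12h, so that S_12h replicates 1 and 2 were low against them. The remaining 659 (65.4%) were split. A_12h replicate 3, also not among the 11, was nearer to A_12h in only 8.23% of the 1008 genes. Over all 5802 genes called higher in the 4-library fit, whatever their fold, the medians of these libraries and of S_12h replicate 3 were 0.83 to 1.06, near the level of A_12h, and over all 5702 lower genes they were 0.99 to 1.2. In the 16-library fit they were 0.96 to 1.14 over the 1768 higher genes, A_0h replicate 3 included, and 0.59 to 0.73 without it over the 370 that were at least 2-fold higher. The S_12h pair stood apart from the 11 in 54.6% of the lower and 11.9% of the higher genes. This difference is a description over genes and was not tested.

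**Figure D5:**
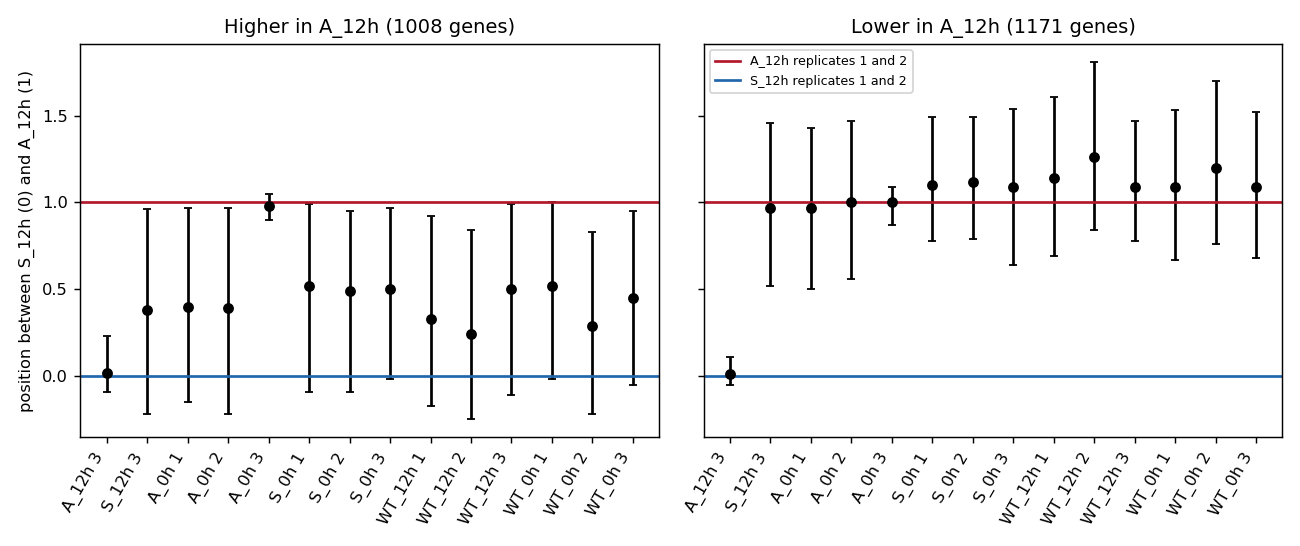
Position of each library not used for the fold change between S_12h replicates 1 and 2 (0, blue line) and A_12h replicates 1 and 2 (1, red line), as the median over genes with bars from the lower to the upper quartile, for 1008 genes at least 2-fold higher and 1171 genes at least 2-fold lower in A_12h in the 4-library fit. A_12h 3 sits at 0.02 and 0.01, A_0h 3 at 0.98 and 1, and all other libraries lie at 0.97 or above for lower genes and spread around the middle for higher genes.

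Full on and off differences were few, and more IDs were on in the A_12h pair than in the S_12h pair. The S_12h pair held fewer counts, so 0 counts come more easily there, and the part of depth was not tested. At a mean of at least 1 CPM, 16 IDs were present in A_12h replicates 1 and 2 with 0 counts in S_12h replicates 1 and 2. The other way, 3 IDs were present in the S_12h pair with 0 counts in the A_12h pair. At a mean of at least 10 CPM there were 4 and 1. The 16-library fit called 10 of the 16 and all 3, and the 4-library fit called all of both. Of the 16, 15 had 0 counts in A_12h replicate 3 as well and 15 had more than 3 counts in S_12h replicate 3. All 16 had more than 3 counts in A_0h replicates 1 and 2, 13 had so in every S_0h library and 9 in every WT library. Most were thus absent from S_12h replicates 1 and 2 and A_12h replicate 3 and present elsewhere. Of the 3 IDs the other way, none had more than 3 counts in every WT or every S_0h library, and all had so in A_0h replicates 1 and 2. S_12h replicate 3 differed from the other 5 compared libraries in 165 IDs at 1 CPM or more in it and at 3 counts or fewer in each of the others. Of these, 135 were at 1 CPM or more in both A_0h replicates 1 and 2. No other compared library had such an ID, but each of the others has a near match among the compared libraries. The libraries that S_12h replicate 3 resembles lie outside them, so this contrast shows no more than the correlations do.

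Whether the difference between the lines after hypoxia also existed in air at 0 h was asked of A_0h and S_0h, which share no library with A_12h and S_12h. In the 16-library fit A_0h and S_0h also help set the spread, so they bear on which genes were called there. Among the 518 genes at least 2-fold lower in A_12h (16-library fit), 173 (33.4%) were also lower in A_0h than in S_0h with all libraries, and the median log2 fold change was -1.74 after hypoxia and 0.26 in air. Among the 370 higher genes, 242 (65.4%) were also higher in air, with medians of 1.8 after hypoxia and 0.32 in air. The air contrast holds A_0h replicate 3, which resembles A_12h replicates 1 and 2. It also holds S_0h replicate 3, whose nearest libraries were WT_0h replicates 1 and 3 (Spearman correlations of 0.9978 and 0.9974). In the fit of 12 libraries, which leaves both out, 212 of 369 higher genes (57.5%) were also higher in air, with a median of 0.13 in air. Of these 369, 129 were called in the same and 82 in the opposite direction. In that fit 11426 of 21030 genes were called in air, so air calls were common among all genes. Its counts of air calls, here and below, are therefore not read as a trait of these genes. There 186 of the 518 lower genes (35.9%) were also lower in air, with a median of 0.29, and 90 were called in the same and 214 in the opposite direction. The 4-library fit took no spread from the air libraries. Of its 1008 higher genes, 502 (49.8%) were also higher in air in the fit of 12 libraries, with a median of 0. There 268 were called in the same and 288 in the opposite direction. Of the 1171 lower genes of the 4-library fit, 464 (39.6%) were also lower in air, with a median of 0.25, and 227 were called in the same and 414 in the opposite direction. Over all genes tested in air 53.4% were higher in A_0h with all libraries and 51.3% with 12. The difference of both contrasts passed the threshold in 257 of 20945 genes with all 18 libraries (1.23% called), 106 higher (0.506%) and 151 lower (0.721%), and 21% had an unadjusted p under 0.05. Here higher means a more positive A over S fold change after hypoxia than in air. Of the 370 and 518 genes only 5 and 3 were among them, in the matching direction. The 257 genes became 89 without S_12h replicate 3, 1253 without A_12h replicate 3 and 3837 without A_0h replicate 3. They became 1 to 17 without any 1 of A_12h replicates 1 and 2, A_0h replicates 1 and 2 and the 3 S_0h libraries, and 399 without S_12h replicate 1. In the fit of 12 libraries the same test called 10520 of 21030 genes and included 296 of the 370 and 488 of the 518 in the matching direction. That test contains the contrast that chose these genes, in the same libraries, so nothing is read from this overlap.

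The IDs with the largest difference of contrasts were led by libraries that stand apart. Zm00001d036609.RefGen_V4 was at 0.0277, 0 and 0.0275 CPM in A_12h and at 0.0605, 0.0182 and 73.7 CPM in S_12h, and at 74.6, 73.3 and 0 CPM in A_0h and 0.0284, 0.0251 and 0.0946 CPM in S_0h. Its difference of contrasts was -20.33 on the log2 scale (SE 4.19, adjusted p = 0.0468), again a figure that moves with the prior count. It rested on S_12h replicate 3 and A_0h replicates 1 and 2, and without S_12h replicate 3 it was -11.17 (adjusted p = 0.266). Zm00001d042684.RefGen_V4 had the same form, at 0.0277, 0.0704 and 0 CPM in A_12h against 0.0908, 0.218 and 47.8 CPM in S_12h, and at 50.5, 44.7 and 0.114 CPM in A_0h against at most 0.0284 CPM in S_0h (difference of contrasts -19.31, SE 3.69, adjusted p = 0.0426; -12.6 without S_12h replicate 3, adjusted p = 0.0638). Both calls were also lost without any 1 of A_12h replicates 1 and 2, A_0h replicates 1 and 2 and the 3 S_0h libraries (adjusted p from 0.103 to 0.16), by limma-voom (adjusted p = 0.688 and 0.557), with no filter (adjusted p = 0.0589 and 0.0535), with only the groups compared (adjusted p = 0.145 and 0.133) and with the replicate block (adjusted p = 0.111 for both). In 105 of the 151 genes called lower (69.5%), A_0h replicates 1 and 2 and S_12h replicate 3 were the 3 highest of the 12 libraries of both lines. In 35 of the 106 genes called higher (33%) the same libraries were the 3 lowest. Over all 20945 genes tested, they were the 3 highest in 4028 (19.2%) and the 3 lowest in 3500 (16.7%). The labels of these libraries put them on the side that the test sets apart, so the counts describe which libraries led the calls and test nothing.

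The 2 IDs with a more positive difference after hypoxia were expressed throughout. Zm00001d002132.RefGen_V4 was at 262, 263 and 159 CPM in A_12h and 157, 151 and 151 CPM in S_12h after hypoxia, and at 154, 147 and 260 CPM in A_0h and 527, 491 and 414 CPM in S_0h in air. S_12h was thus level with A_0h replicates 1 and 2 and far below S_0h, while A_12h replicates 1 and 2 were level with A_0h replicate 3. The difference of contrasts was 1.92 (SE 0.29, adjusted p = 0.0197). Zm00001d015008.RefGen_V4 was at 37.8, 36.4 and 16.1 CPM in A_12h and 15.3, 15.6 and 17.0 CPM in S_12h, against 17.3, 17.7 and 35.6 CPM in A_0h and 54.5, 50.7 and 41.0 CPM in S_0h (1.96, SE 0.45, adjusted p = 0.0495). Its call was lost under RLE scaling (adjusted p = 0.0504), with no filter (0.0611), with the stricter filter (0.0527), by limma-voom (0.0596), with only the groups compared (0.146), with the replicate block (adjusted p = 0.111) and without any 1 library other than A_12h replicate 3 or A_0h replicate 3 (adjusted p from 0.0597 to 0.16). The call of Zm00001d002132.RefGen_V4 was lost without A_12h or A_0h replicate 1 or 2 or S_0h replicate 1 or 2 (adjusted p from 0.0542 to 0.089), with only the groups compared (adjusted p = 0.0898) and with the replicate block (adjusted p = 0.0867). Both were also called higher in A_12h than in S_12h without replicate 3 of both groups, with log2 fold changes of 0.77 (adjusted p = 0.0291) and 1.26 (adjusted p = 0.0195).

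The 49 IDs that begin with GRMZM5G, a naming scheme apart from that of the other 28675, are given by count alone. Of the 12 that could be tested without replicate 3 of both groups, 0 were called higher and 1 lower in A_12h, with a median log2 fold change of -0.27, where 16.3% of all genes were called. The 4-library fit called 0 higher and 1 lower of 11, where 58.3% of all genes were called, and with all 3 libraries a side 0 of 12 were called. With so few IDs no difference from other genes is shown.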

How the data were processed

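RNA sequencing was read from 1 table of counts deposited by the authors, whole numbers per gene ID and library, not normalised. The build was B73 RefGen_v4 and the tools HISAT2 and featureCounts, per the submitters' processing notes. Their versions, strand setting and handling of reads with several matches were not found in the sources used here, so near-identical, overlapping and antisense genes are uncertain. Groups and replicate numbers come from the titles. Genes were filtered with filterByExpr, scaled by TMM and tested with edgeR 4.0.16 in R 4.3.3 (quasi-likelihood, robust, 1 mean per group) on all 18 libraries (12 residual degrees of freedom), or on 16 (10) or 4 (2). Calls have a Benjamini-Hochberg adjusted p under 0.05, and standard errors were derived from F and the log2 fold change. limma 3.58.1, DESeq2 1.42.0, RLE scaling, other filters, a replicate block and leaving out libraries were alternatives. Correlations and positions used log2 CPM with a prior count of 2. The fits were also run on simulated data, from which nothing is read here about groups holding a library that resembles another group. The comparison, its 2 left-out libraries and the rules were chosen with earlier results of these data known. With no name for any ID, the rule took at most 2 IDs per direction and result, called, with the largest log2 fold change and a mean of at least 10 CPM in the higher group. The 28 gene lists and the marker lists were not tested for the same reason. No sequence is shown. Same-numbered libraries of A_12h and S_12h deviated in opposite directions from their group means, with correlations of -0.27, -0.29 and -0.36. Replicates 1 and 2 with unlike numbers gave -0.27 and -0.28. Replicate 3 pulls the mean of both groups, so this check cannot decide on pairing, and the numbers were not taken as pairs. The floors cover counting error only, while the standard errors also take in the spread between libraries.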

Additional observations from a re-analysis of the deposited data

Results flagged for a closer look

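The difference between the lines changed between air at 0 h and hypoxia at 12 h in 257 genes, by an interaction test with all 18 libraries. Oxygen and elapsed time cannot be told apart in that test. The IDs picked from it were Zm00001d015008.RefGen_V4 (1.96 on the log2 scale) and Zm00001d002132.RefGen_V4 (1.92), more positive after hypoxia, and Zm00001d036609.RefGen_V4 (-20.33) and Zm00001d042684.RefGen_V4 (-19.31), more negative. For the last 2, S_12h replicate 3 was at 73.7 and 47.8 CPM where S_12h replicates 1 and 2 were below 0.22 CPM, and its part in the count of 257 is given by leaving it out, which left 89 genes. Groups of 3 libraries are too small for a test of single outlying libraries.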

How the results depend on the processing

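With all 3 libraries a side, the count of 0 genes held under RLE scaling, no filter, the stricter filter, only the groups compared, limma-voom, the replicate block (0) and without any 1 of the 6 libraries (0 to 0, lowest adjusted p 0.064, without A_12h replicate 3). It was 93 by DESeq2, 3452 with both libraries of number 3 left out and 10009 without the 6 libraries nearest to another group. Without replicate 3 of both groups, the 3452 genes became 11504 with only the groups compared and 10009 without the 6 libraries. Leaving out 1 more library gave 1136 to 1311, which leaves 1 library in a group that is assumed to vary like the others. The replicate block gave 3228, DESeq2 4677, RLE scaling 3426, limma-voom 3634, no filter 3114 and the stricter filter 3327. Higher genes were 51.2% of calls, but 47.6% by DESeq2, 46.5% with RLE scaling, 45% by limma-voom and 39.9% without S_12h replicate 2. The count of 257 genes, whose difference between lines changed between air at 0 h and hypoxia at 12 h, was 1852 by DESeq2. It was 28 with no filter, 70 with the stricter filter, 13 with only the groups compared and 132 by limma-voom. With the replicate block it was 1, and without the 6 libraries it was 10520. Leaving out 1 library gave 1 to 3837, the highest without A_0h replicate 3 and the lowest without S_0h replicate 2 or A_12h replicate 1 or 2. The count was 17 and 13 without S_0h replicate 1 or 3, 4 without A_0h replicate 1 or 2, 1253 without A_12h replicate 3, and 399 and 89 without S_12h replicate 1 or 3. The cause of these shifts was not tested. No named ID changed direction. Alternatives for gene lists were not run, because no ID could be paired with a name.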
